A study of Mus musculus with 6 samples.

Results

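The muscle miRNAs examined here, often called myomiRs, are mmu-miR-1a-3p, mmu-miR-133a-3p, mmu-miR-133b-3p, mmu-miR-206-3p and mmu-miR-499-5p. They were taken by name from a table of 810 mature miRNAs, and 3 of the 5 had a row in it: mmu-miR-1a-3p, mmu-miR-206-3p and mmu-miR-499-5p. Every row of that table has at least 1 read in at least 1 library. No row carries the name mmu-miR-133a-3p or mmu-miR-133b-3p. Neither thus had a counted read in any of the 6 libraries, with or without cisplatin, and neither could be tested. The libraries were made from small extracellular vesicles (sEV), membrane particles that cells release, collected from the medium of cochlear explants of ICR mice at postnatal day 3. An explant is the cultured sensory epithelium of the inner ear, from which the authors had removed the spiral ganglion under a microscope. The 3 Cis-sEV libraries came from explants kept with 50 µM cisplatin for 48 h, and the 3 Ctrl-sEV libraries from explants given the same volume of PBS. All cultures had recovered overnight and were kept in medium with fetal bovine serum cleared of its own sEV, and each library pooled the sEV of about 80 explants. Small RNA of 18–30 nt was selected on a gel before sequencing, which leaves the miRNA size range. The question asked of these data is how much muscle-type miRNA the vesicles carried with and without cisplatin.

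miRNAs are short RNAs that guide the silencing of messenger RNAs, mostly through their seed, bases 2 to 8 from the 5′ end. The myomiRs are made in striated muscle fibres in large amounts and help to set the identity of muscle cells. miR-1 and miR-133a are made from shared transcripts in heart and skeletal muscle, miR-206 and miR-133b lie next to each other and are typical of skeletal muscle, and miR-499 is made from an intron of a myosin heavy chain gene of slow and cardiac fibres. The sensory epithelium of the cochlea is not a muscle tissue.

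The sequences of mmu-miR-206-3p and mmu-miR-499-5p are shown with that of mmu-miR-133b-3p, the neighbour of mmu-miR-206-3p that has no row, and with the opposite arms of both hairpins, which have no row either. They are those of RefSeq for GRCm38.p6, where 3 of the 5 members were matched by name, and the capitals mark the seed of each member.
mmu-miR-206-3p: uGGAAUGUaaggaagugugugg
mmu-miR-499-5p: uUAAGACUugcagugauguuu
mmu-miR-133b-3p: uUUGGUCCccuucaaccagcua
mmu-miR-206-5p: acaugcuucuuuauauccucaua
mmu-miR-499-3p: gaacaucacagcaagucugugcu
The mature mmu-miR-206-3p lies at chr1:20679055-20679076 on the plus strand, in Mir206, and the mature mmu-miR-133b-3p at chr1:20682834-20682855 on the same strand, in Mir133b. In GENCODE release M21 both genes sit in the long non-coding RNA gene Gm28653, Mir206 in an intron and Mir133b overlapping an exon. The mature mmu-miR-499-5p lies at chr2:155622893-155622913 on the plus strand, in Mir499, within an intron of Myh7b, a myosin heavy chain gene. mmu-miR-1a-3p is made from a pair of genes with the same mature sequence, whose reads cannot be told apart.

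The seed GGAAUGU was shared by mmu-miR-1a-3p and mmu-miR-206-3p and by no other of the 809 rows that give a mature sequence. Along their 22 bases the 2 differ at 4 positions, and no other sequence of the same length came within 5 differing bases of a member. The seed UAAGACU was held by mmu-miR-499-5p alone, and the seed of mmu-miR-133b-3p, UUGGUCC, by 0 of the 809 rows searched.

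mmu-miR-1a-3p, the myomiR common to skeletal and heart muscle, gave 54, 68 and 70 reads after cisplatin and 0, 2 and 0 reads in Ctrl-sEV. Scaled to 1000000 miRNA reads of the library (CPM), this was 30.1, 39.5 and 39.0 with cisplatin and 0, 2.78 and 0 without. The cisplatin libraries were all high and the control libraries all at or near 0, so the groups did not overlap.

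mmu-miR-206-3p, the myomiR of skeletal muscle, had 31, 22 and 42 reads in Cis-sEV and 0 reads in each Ctrl-sEV library. Its CPM was 17.3, 12.8 and 23.4 in Cis-sEV. By counting error alone, a count of 0 allows up to 5.56, 4.17 and 5.67 CPM, the level of 3 reads, in Ctrl-sEV replicates 1, 2 and 3. Each Cis-sEV library was above those limits. For some miRNAs the spread between Ctrl-sEV libraries was far wider than counting error. mmu-miR-214-3p had 0, 141 and 214 reads in Ctrl-sEV, and mmu-miR-145a-5p had 1, 0 and 64.

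mmu-miR-499-5p, from the myosin gene Myh7b, had 28, 24 and 23 reads in Cis-sEV and 1 read in each Ctrl-sEV library. In CPM these were 15.6, 13.9 and 12.8 against 1.85, 1.39 and 1.89. It was the only one of the 3 found in every library, and its groups did not overlap either.

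**Figure D1:**
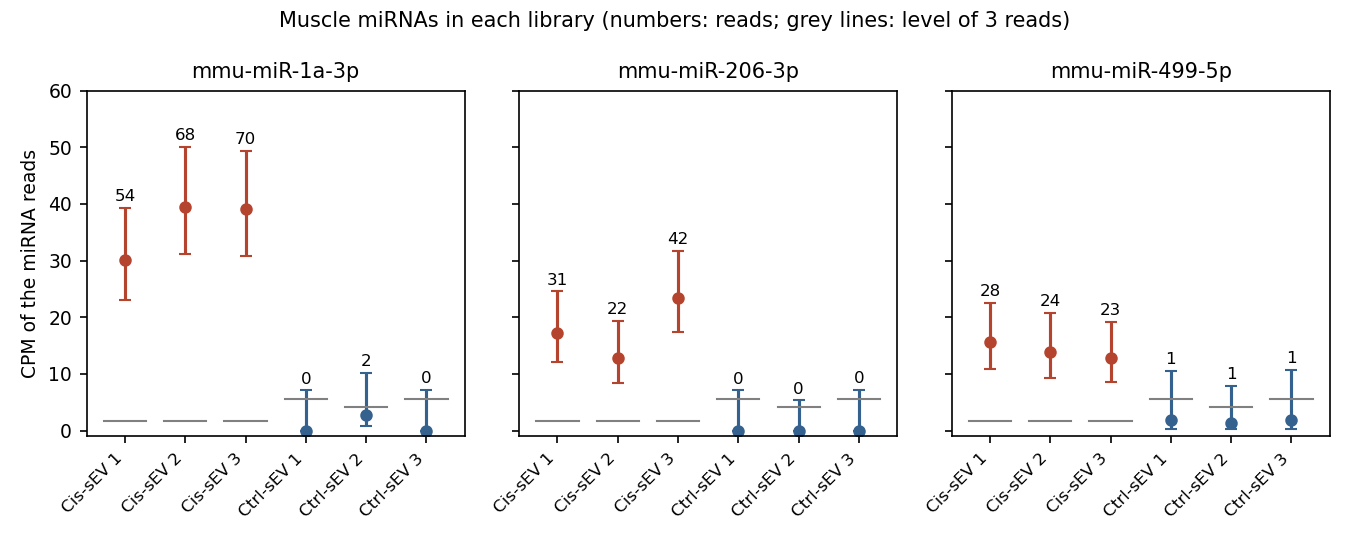
Level of each muscle miRNA (vertical axis, CPM of the miRNA reads of the library) in the 3 Cis-sEV (red) and 3 Ctrl-sEV (blue) libraries. Points are single libraries, bars 95% Wilson intervals for counting error, numbers above them reads, and grey lines the level of 3 reads. Every Cis-sEV point is at 12.8 CPM or more and every Ctrl-sEV point at 2.78 CPM or less.

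Within Cis-sEV the order of the levels was mmu-miR-1a-3p with 36.2 ± 5.26 CPM (SD, n = 3), mmu-miR-206-3p with 17.8 ± 5.34 CPM and mmu-miR-499-5p with 14.1 ± 1.42 CPM. The libraries of mmu-miR-1a-3p did not overlap those of mmu-miR-206-3p, whereas mmu-miR-206-3p and mmu-miR-499-5p overlapped and did not differ beyond their spread. All 3 are 21 or 22 nt long. By mean CPM in Cis-sEV they held ranks 249, 320 and 343 among the 810 miRNAs of the table. In Ctrl-sEV mmu-miR-499-5p averaged 1.71 ± 0.278 CPM and mmu-miR-1a-3p 0.928 ± 1.61 CPM, both under the level of 3 reads.

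Together the 3 miRNAs made up 113, 114 and 135 reads of the Cis-sEV libraries, against 1, 3 and 1 reads for Ctrl-sEV. As a share of all miRNA reads this was 0.00631 to 0.00752% with cisplatin and 0.000185 to 0.000417% without. The muscle miRNAs were thus a trace of the vesicle miRNA in both groups, and a larger trace after cisplatin.

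The make-up of these reads was similar among the Cis-sEV libraries. mmu-miR-1a-3p took 47.8, 59.6 and 51.9% of the muscle reads, mmu-miR-206-3p 27.4, 19.3 and 31.1%, and mmu-miR-499-5p 24.8, 21.1 and 17.0%. The 95% Wilson intervals of the 3 libraries overlapped for each miRNA, from 38.8 to 68.2% for mmu-miR-1a-3p, from 13.1 to 39.3% for mmu-miR-206-3p and from 11.6 to 33.5% for mmu-miR-499-5p. With 5 reads in all of Ctrl-sEV, its make-up could not be compared.

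**Figure D2:**
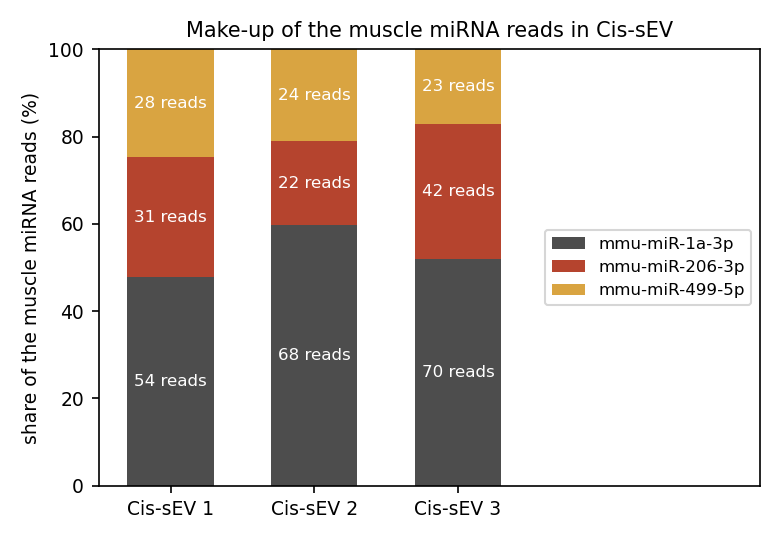
Share of the muscle miRNA reads (vertical axis, percent) taken by each miRNA in the 3 Cis-sEV libraries, with the reads written in the bars. mmu-miR-1a-3p has the largest part of each bar, between 47.8 and 59.6%.

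Replicate spread within Cis-sEV was near counting error for mmu-miR-1a-3p, above it for mmu-miR-206-3p and below it for mmu-miR-499-5p. An SD from 3 libraries is uncertain, so these values do not show that the miRNAs differ in spread. The SD of the reads was 8.72 for mmu-miR-1a-3p, where counting alone gives 8.0, and 10.0 against 5.63 for mmu-miR-206-3p. For mmu-miR-499-5p it was 2.65 against 5.00, so its replicates were closer than counting alone would make them on average. Given the depths of the 3 Cis-sEV libraries, the chi-square per degree of freedom was 1.36, 2.80 and 0.254 for these miRNAs in turn. For the summed muscle reads it was 1.05. Over all miRNAs it was 51.2 to 72.8 between pairs of Cis-sEV libraries and 77.0 to 91.5 between pairs of Ctrl-sEV libraries, so none of the libraries repeats another.

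Depth differed between the groups, with 1722359 to 1794175 miRNA reads for each cisplatin library and 528952 to 718597 for each control library. At the pooled Cis-sEV share, mmu-miR-1a-3p would have given 19.5, 26.0 and 19.1 reads in the Ctrl-sEV libraries, where 0, 2 and 0 were found. mmu-miR-206-3p would have given 9.7, 12.9 and 9.5 reads, and mmu-miR-499-5p 7.6, 10.2 and 7.5. The reads found, 0 in each library and 1 in each library, were below those numbers throughout.

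The pooled CPM of mmu-miR-1a-3p was 32.3 times as high with cisplatin as without, with a 95% Clopper-Pearson interval of 8.83 to 269 that covers counting error only. All of its Ctrl-sEV reads are in replicate 2, and without that library it was at least 12.9-fold higher, taking 3 reads over the group as the floor. Leaving out Ctrl-sEV replicate 1 or 3 gave ratios of 22.6 and 22.8. For mmu-miR-206-3p, with 0 reads in Ctrl-sEV, the same floor makes it at least 10.7-fold higher, a bound that also covers counting error only. Without Ctrl-sEV replicate 2, the deepest of that group, this bound was at least 6.38-fold. mmu-miR-499-5p was 8.42 times higher, with an interval of 2.77 to 41.7, and 7.55 to 8.89 times higher with each library left out in turn. An exact permutation test on the CPM, two-sided, gave p = 0.1 for each of the 3, the smallest p that 3 libraries against 3 allow, and the same value after Benjamini-Hochberg adjustment over the 3.

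The quasi-likelihood test of edgeR was run on all 353 miRNAs with enough reads. A call needed a log2 fold change of 1 or more in size and an adjusted p no higher than 0.05, the limits of the authors. All 3 muscle miRNAs with a row were called higher in Cis-sEV, against 23.5% of all tested miRNAs. All 3 had groups that did not overlap in CPM scaled by TMM factors, against 37.7% of the tested miRNAs. Each of the 3 passed the read minimum through its Cis-sEV libraries alone, so these counts are a description and no support.

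The log2 fold change of mmu-miR-1a-3p was 4.77 (standard error 1.25, adjusted p = 0.0226 from edgeR). Scaled by TMM, it averaged 32.0 ± 4.51 CPM after cisplatin against 0.931 ± 1.61 CPM (SD, n = 3). The call was lost without any 1 of the Cis-sEV libraries, at an adjusted p of 0.0761, 0.0677 and 0.0739 without replicates 1, 2 and 3. It was also lost with limma-voom (adjusted p = 0.247) and with no filter on low counts (adjusted p = 0.0975).

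mmu-miR-206-3p was called at an adjusted p of 0.00523 from edgeR, with 15.7 ± 4.098 CPM scaled by TMM in Cis-sEV (SD, n = 3). Its fitted log2 fold change of 7.32 (standard error 0.76) is against a group at 0 and depends on the prior count, falling to 3.45 with a prior count of 2, and the bound above stands in its place. It was not called by limma-voom, where the adjusted p was 0.0884. Without Cis-sEV replicate 1 or 3 it had too few reads to be tested.

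The log2 fold change of mmu-miR-499-5p was 2.64 (standard error 0.41, adjusted p = 0.0053 from edgeR), from 12.5 ± 1.61 to 1.97 ± 0.526 CPM scaled by TMM in Ctrl-sEV (SD, n = 3). That standard error lies below the 0.85 that counting alone gives for 75 reads against 3. With edgeR's likelihood ratio test, chosen after seeing the data, the standard error was 1.09 and the adjusted p 0.0439. The call was lost with DESeq2 (adjusted p = 0.105), limma-voom (adjusted p = 0.328) and no filter (adjusted p = 0.187), and without Ctrl-sEV replicate 1 (adjusted p = 0.0567) or 2 (adjusted p = 0.0732). Of the 3 it had the smallest change and the call that moved most with the test.

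**Figure D3:**
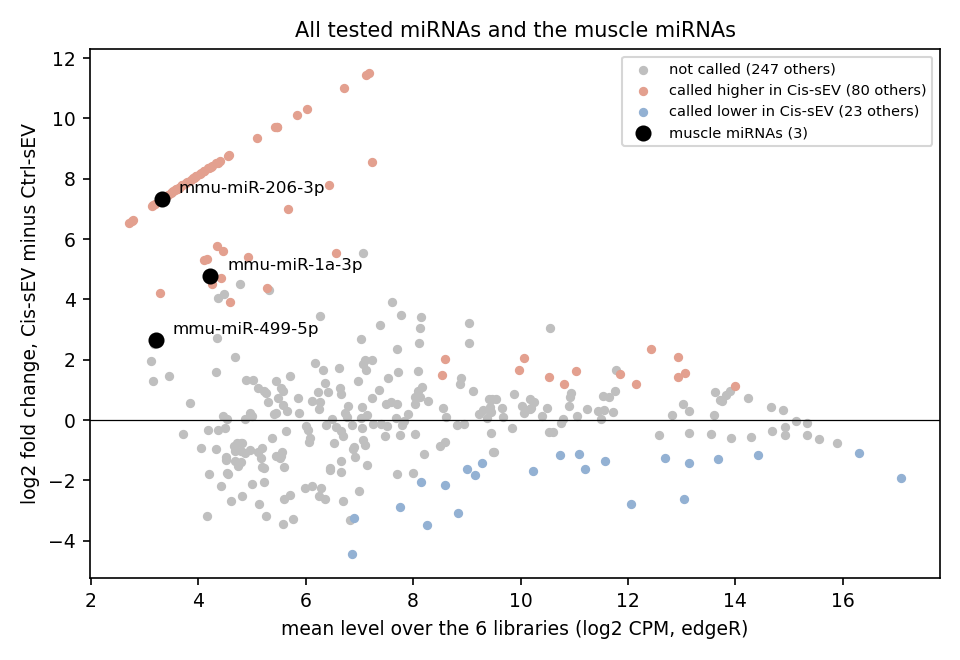
Log2 fold change, Cis-sEV over Ctrl-sEV (vertical axis), against mean level (horizontal axis, log2 CPM) for the 353 tested miRNAs, from edgeR. The 3 muscle miRNAs, in black, lie at the low end of the levels with changes of 7.32, 4.77 and 2.64, and the slanted row of points holding mmu-miR-206-3p is made of miRNAs with 0 reads in Ctrl-sEV.

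The median log2 fold change of all 353 tested miRNAs was 0.44 with TMM factors and 0.80 with total miRNA reads. mmu-miR-1a-3p lay 4.34 above the first of these medians on the log2 scale, and mmu-miR-499-5p 2.20 above it. No such distance is given for mmu-miR-206-3p, whose bound is on the scale of total miRNA reads. Their own median was 4.77 with the fitted values. With mmu-miR-206-3p set at its bound of 3.41, which is on the other scale, the middle value is that bound itself and not an estimate.

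Many miRNAs of like abundance had the same pattern. Between 14.1 and 36.2 CPM, the range of the mean Cis-sEV levels of the 3, there were 92 other miRNAs. Over the 3 Ctrl-sEV libraries 40 of these had 0 reads, 7 had 1 to 3 reads and 45 had more. Of the 80 that were tested, 35 (43.8%) were called higher in Cis-sEV and 1 lower, with a median log2 fold change of 0.15. The muscle miRNAs were on the side of those with few Ctrl-sEV reads, as 51.1% of the 92 were.

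Pearson's r of log2 CPM over the 6 libraries is given as a description, since the 2 groups set most of it. By this r the miRNAs whose levels followed the muscle miRNAs most closely were found. For mmu-miR-1a-3p they were mmu-miR-542-5p (r = 0.985), mmu-miR-212-3p (0.970) and mmu-miR-1843a-5p (0.970). For mmu-miR-206-3p they were mmu-miR-326-3p (r rounding to 1), mmu-miR-125b-2-3p (0.9998) and mmu-miR-301b-3p (0.999), each with 0 reads in Ctrl-sEV. For mmu-miR-499-5p they were mmu-miR-598-3p (r = 0.992), mmu-miR-153-3p (0.992) and mmu-miR-1843b-3p (0.991). Such values were common, as 70, 88 and 85 of the 349 miRNAs compared had an r of at least 0.9 with the 3 in turn. Among themselves the muscle miRNAs correlated at 0.960 (mmu-miR-1a-3p with mmu-miR-206-3p), 0.924 (mmu-miR-1a-3p with mmu-miR-499-5p) and 0.975.

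The remaining miRNAs of the muscle list gave little more. mmu-miR-486a-5p, also made in muscle, was on the erythrocyte list and was called lower, as given below. Of 14 others on the muscle list, which holds the opposite arms, the heart miRNAs of the miR-208 pair and mmu-miR-133c, 2 had a row. mmu-miR-1b-5p had 1 read, in Cis-sEV replicate 1. mmu-miR-378a-3p, which is rich in muscle but made in many tissues from an intron of a metabolic regulator gene, had 3968, 3242 and 3662 reads with cisplatin and 501, 1088 and 1214 without. It changed by 0.05 on the log2 scale (standard error 0.29, adjusted p = 0.936 from edgeR), which did not pass the test, and its groups overlapped in CPM. The label of these miRNAs as muscle miRNAs thus rests on 3 rows, as 2 of the 5 members had no counted read. Whether muscle fibres were their source was not tested. Since each library pools vesicles of many cells, more cells or vesicles of a kind and more of a miRNA in each cannot be told apart.

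Relative to the miR-183 family, the miRNAs that mark hair cells, the muscle reads were also higher in Cis-sEV. Per 1000 reads of mmu-miR-183-5p, mmu-miR-96-5p and mmu-miR-182-5p there were 0.774, 1.05 and 1.27 muscle reads with cisplatin and 0.0332, 0.0749 and 0.0344 without. This ratio does not depend on the scaling of a library, although mmu-miR-96-5p itself was called higher in Cis-sEV, by 2.08 on the log2 scale (standard error 0.47, edgeR adjusted p = 0.0142).

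Markers of other cells and tissues were called in both directions, and their counts stand beside 23.5% of all 353 tested miRNAs called higher and 6.52% called lower. Of the 5 miRNAs of the smooth muscle and vessel list 4 were tested, with 0 called higher and 1 lower. That was mmu-miR-126a-3p of endothelium, at -1.28 on the log2 scale (standard error 0.18, edgeR adjusted p = 0.00523), and the summed level was 11410 to 14920 CPM after cisplatin against 17190 to 20530 CPM. The other 3 tested miRNAs of that list had positive log2 fold changes and were not called. These were mmu-miR-126a-5p, the opposite arm, at 4.17 (standard error 1.52, 94, 51 and 84 reads against 0, 0 and 3), mmu-miR-145a-5p at 1.72 (standard error 1.91) and mmu-miR-143-3p of smooth muscle at 0.77 (standard error 0.17). mmu-miR-143-3p missed a call through the fold limit alone (edgeR adjusted p = 0.0141), and its groups did not overlap in CPM scaled by TMM factors. The median of the list was 1.24. Of the 5 erythrocyte miRNAs 3 were tested and 2 were called lower, mmu-miR-451a at -1.15 and mmu-miR-486a-5p at -3.47, and the summed level was 1158 to 1337 CPM against 1639 to 3604 CPM. mmu-miR-486a-5p is made in muscle as well as in red cells, so not every miRNA made in muscle was higher in Cis-sEV. Its mean was 57.2 CPM after cisplatin against 481 CPM. That of mmu-miR-486b-5p, which was not called, was 22.7 against 184 CPM.

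Of the 6 liver and pancreas miRNAs 2 were tested and 1 was called, mmu-miR-122-5p of liver, lower at -2.78 (standard error 0.21, edgeR adjusted p = 0.001105), with summed levels of 1305 to 1692 CPM against 6371 to 7142 CPM. Calls in the direction of the muscle miRNAs were made, beside 23.5% of all tested miRNAs, on the lists for neuron (2 of 5 tested, mmu-miR-124-3p and mmu-miR-153-3p, both at 0 reads in Ctrl-sEV), epithelium (2 of 6 tested, mmu-miR-200a-3p at 1.21 and mmu-miR-200b-3p at 1.65) and hair cell (1 of 3 tested, mmu-miR-96-5p). On the hair cell list mmu-miR-183-5p went the other way, at -0.49 (standard error 0.15, edgeR adjusted p = 0.0419). mmu-miR-183-5p missed a call through the fold limit alone, and its groups did not overlap in CPM scaled by TMM factors. mmu-miR-182-5p, at 0.18 (standard error 0.34, edgeR adjusted p = 0.782), was not called. The summed level of the neuron list was 2271 to 2626 CPM against 987 to 1451 CPM. That of the epithelium list was 46640 to 49730 against 23460 to 31980 CPM, and that of the hair cell list 59070 to 81520 against 54980 to 55760 CPM. The summed levels of the lists are scaled to total miRNA reads, whereas the log2 fold changes use TMM factors. With TMM factors the hair cell sums of the groups overlap. Within Cis-sEV mmu-miR-96-5p varied widely, with 42622, 19052 and 13060 reads. None was called of the 5 mesenchyme miRNAs, all tested, or of the 5 leukocyte miRNAs, of which 3 had a row and 2 were tested, and their summed levels overlapped, at 1709 to 5139 against 1156 to 2794 CPM and at 430 to 674 against 399 to 561 CPM. The part of these cells in the muscle result was not tested.

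**Figure D4:**
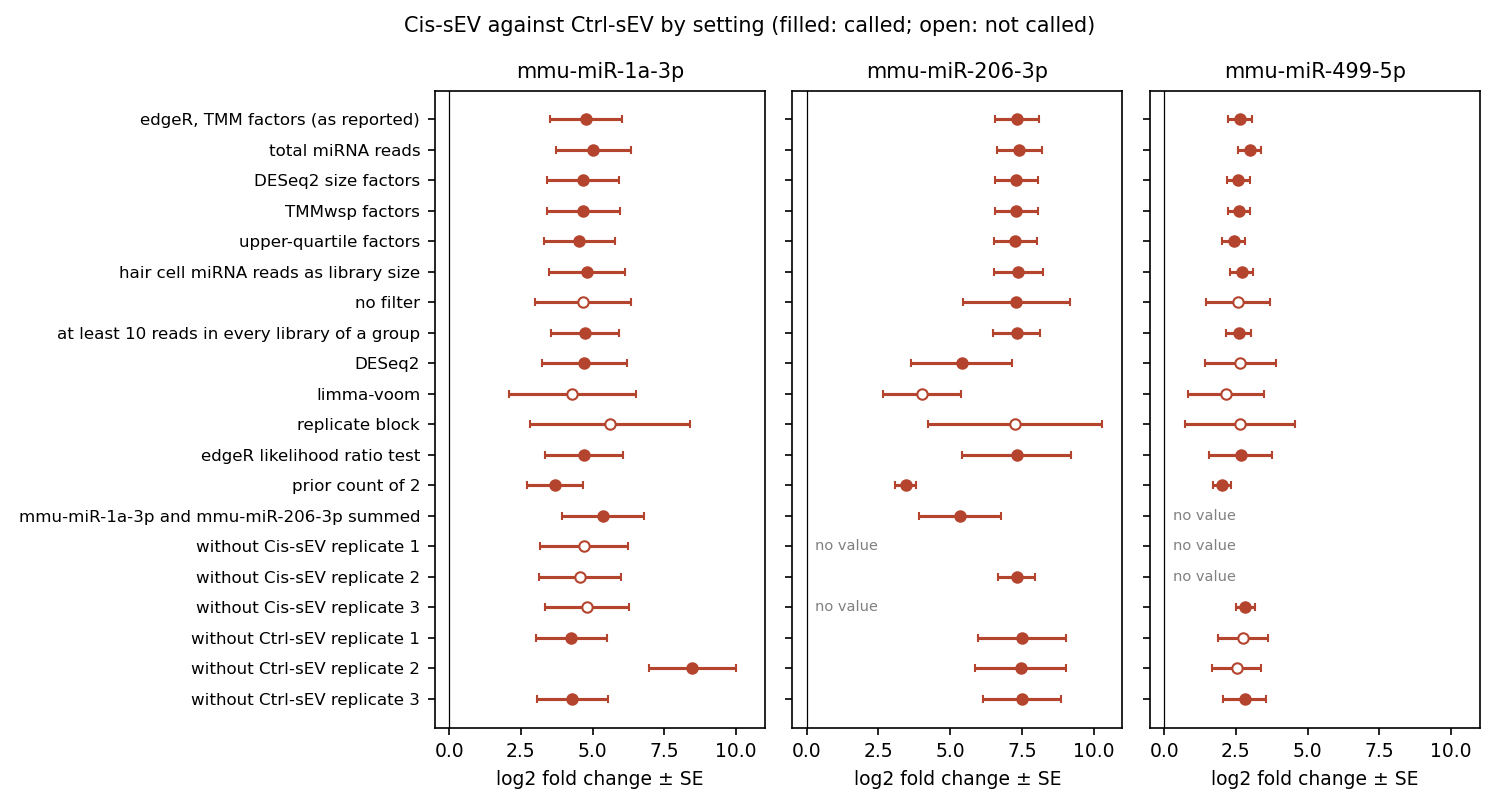
Log2 fold change of each muscle miRNA (horizontal axis, points, with standard error bars) in the analysis as reported and under the other settings that changed the fit (rows). Filled points were called and open points were not, and every value is above 0, from 2.01 to 8.48. 4 values are missing where a miRNA had too few reads without a Cis-sEV library, and mmu-miR-499-5p has none for the sum of mmu-miR-1a-3p and mmu-miR-206-3p.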

How the data were processed

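For 6 small RNA libraries read on a DNBSEQ instrument, the authors used Bowtie2 for alignment (GRCm38.p6) and AASRA and CMSearch for annotation, and deposited the raw count of reads on each mature miRNA. The 2 deposited columns of group means, a score here, were not used, and the deposited mature lengths, in nt (other), were not tested. Replicates are the 3 biological replicates of the study's design. CPM is relative to the counted miRNA reads of a library, so reads of other RNA classes do not enter it.

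All 810 rows entered edgeR 4.0.16 (R 4.3.3): filterByExpr with its defaults (10 reads, 15 in all), TMM factors, the quasi-likelihood test, Benjamini-Hochberg adjustment over the 353 tested miRNAs, with limma 3.58.1 and DESeq2 1.42.0 as alternatives. Standard errors were the log2 fold change divided by the square root of F. Scripts were tested on simulated data. Exact tests and intervals used scipy 1.17.1 and figures matplotlib 3.10.9. Intervals and floors cover counting error only, since PCR copies were not told apart. The miRNAs named were the 5 members, those of marker lists, and for each member the 3 most correlated miRNAs. Members, lists and tests were chosen with earlier results of these data known, and the range of like abundance after seeing the values.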

Additional observations from a re-analysis of the deposited data

How the results depend on the processing

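No alternative turned the direction of a muscle miRNA, but with so few Ctrl-sEV reads hardly any setting could have, so this is no support. Of 20, 18 and 17 alternatives, mmu-miR-1a-3p, mmu-miR-206-3p and mmu-miR-499-5p kept their call in 14, 16 and 11. These tallies leave out the fits in which a miRNA had too few reads to be tested. A call by adjusted p alone only loosens the rule, and a prior count of 2 left each adjusted p unchanged, so such settings say little about the calls. The log2 fold changes that were no longer called were 4.66 (mmu-miR-1a-3p) and 2.57 (mmu-miR-499-5p) with no filter, 2.65 with DESeq2 (mmu-miR-499-5p), and 4.29, 4.02 and 2.15 with limma-voom. With each library left out they ran from 4.26 to 8.48 for mmu-miR-1a-3p (8.48 without Ctrl-sEV replicate 2, against a group then at 0) and from 2.53 to 2.83 for mmu-miR-499-5p, with calls lost without each Cis-sEV library for the former and without Ctrl-sEV replicates 1 and 2 for the latter. The number of called miRNAs, 106, was 43 with limma-voom (134 at an unadjusted p under 0.05) and 53 to 169 with each library left out (53, 57 and 70 without Cis-sEV replicates 1, 2 and 3, and 169 without Ctrl-sEV replicate 3). With mmu-miR-204-5p in place of the hair cell miRNAs, the log2 ratio of the muscle reads between the groups was 6.13 and not 4.32. mmu-miR-204-5p was itself called lower in Cis-sEV, at -1.93 (standard error 0.23, edgeR adjusted p = 0.00502), and a lower reference raises this ratio. The cause of the other shifts was not tested, except that the fits with no filter and with a library left out had other numbers of miRNAs or libraries.

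With the replicate block, 24 miRNAs were called. The muscle miRNAs had log2 fold changes of 5.61, 7.27 and 2.64 and were not called (edgeR adjusted p = 0.196, 0.161 and 0.395). The deviations of same-numbered libraries correlated at -0.188 to -0.016, and 0 of the 6 libraries correlated best with its own number. With 3 libraries in a group and many miRNAs at few reads, this cannot show that the libraries were unpaired. The labels do not say whether the numbers pair them. Summing mmu-miR-133a-3p with mmu-miR-133b-3p was not run, as neither has a row. mmu-miR-206-3p without Cis-sEV replicate 1 or 3 and mmu-miR-499-5p without Cis-sEV replicate 1 or 2 had too few reads to be tested. By counting error alone, levels under about 5 CPM in a Ctrl-sEV library cannot be resolved, and the spread between libraries can leave higher levels unseen.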
